A study of Mus musculus with 9 samples.

Results

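The 10 genes described here are genes of the primitive endoderm: the transcription factor genes Gata4, Gata6, Sox7, Sox17 and Foxa2, the secreted protein genes Apoe and Afp, and the endocytic receptor genes Lrp2, Cubn and Amn. They were chosen by name, with earlier results of these data known. Every probe whose RefSeq accession belongs to one of these symbols was taken, which gave 13 of the 39364 probes used. All 10 genes were among the 20443 genes tested. Expression was measured on one-colour Agilent arrays in 3 groups of 3 samples, which the submitters describe as biological replicates. The control and knockdown ES cells were VV3, a male 129SV embryonic stem (ES) cell line in which the promoter of the germ cell gene Vasa (Ddx4) drives the fluorescent protein Venus. Control cells received a non-silencing siRNA (AllStars) and were sorted as live single cells after 3 days. Knockdown cells received an siRNA against Max, which encodes the dimerization partner of the MYC, MXD and MGA proteins, and were sorted after 3 days as live single cells that were also Venus-positive. The siRNA and the Venus gate therefore differed together, and their parts in a difference cannot be told apart. The primordial germ cells (PGCs) came from male embryos at E13.5, of the MCH x C57BL6/J cross with the transgene Oct4ΔPE-GFP, a reporter of germ cells, and were sorted from dissociated genital ridges for GFP. The ES samples came from 1 line, and how many embryos stood behind each PGC sample was not given in the sources used here. By its design text, the study compared Venus-positive knockdown cells with normal ES cells and with germ cells of the embryo.

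Primitive endoderm is the layer that segregates from the pluripotent epiblast in the blastocyst and gives rise to the visceral and parietal endoderm of the yolk sac. GATA6 acts at the start of this choice, and GATA4, SOX17 and SOX7 follow. FOXA2 is a factor of visceral and definitive endoderm. Visceral endoderm takes up protein from outside the embryo through cubilin, the product of Cubn, a receptor with no membrane span of its own. Cubilin is carried to the membrane by amnionless, the product of Amn, and is internalized together with megalin, the product of Lrp2, a giant member of the LDL receptor family. The same tissue secretes alpha-fetoprotein, from Afp, and apolipoprotein E, from Apoe. ES cells can give rise to such cells in culture.

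RefSeq promoters of 300 bases, which end shortly after each start (GRCm38.p6), were held for 6 of the 10 genes: Foxa2, Afp, Apoe, Lrp2, Cubn and Amn. Of these, the 3 receptor genes are printed because they were all lower in the knockdown, and Afp because it stood apart in the PGCs. Each is written 5′ to 3′ on the gene's strand, with the E-box CACGTG in capitals.
Cubn, chr2:13491827-13492126 (minus strand): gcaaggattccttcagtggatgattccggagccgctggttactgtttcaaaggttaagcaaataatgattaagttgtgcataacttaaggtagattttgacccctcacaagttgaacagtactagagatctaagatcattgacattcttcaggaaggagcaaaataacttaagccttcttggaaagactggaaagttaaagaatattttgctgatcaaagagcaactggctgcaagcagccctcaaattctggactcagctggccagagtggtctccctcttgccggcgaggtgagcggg
Amn, chr12:111270846-111271145 (plus strand): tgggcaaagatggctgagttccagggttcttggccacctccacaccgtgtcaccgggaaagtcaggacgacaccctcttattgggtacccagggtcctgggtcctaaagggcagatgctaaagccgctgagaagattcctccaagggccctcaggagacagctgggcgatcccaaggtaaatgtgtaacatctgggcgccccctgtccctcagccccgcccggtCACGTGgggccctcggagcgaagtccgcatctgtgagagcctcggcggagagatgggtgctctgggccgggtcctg
Lrp2, chr2:69585980-69586279 (minus strand): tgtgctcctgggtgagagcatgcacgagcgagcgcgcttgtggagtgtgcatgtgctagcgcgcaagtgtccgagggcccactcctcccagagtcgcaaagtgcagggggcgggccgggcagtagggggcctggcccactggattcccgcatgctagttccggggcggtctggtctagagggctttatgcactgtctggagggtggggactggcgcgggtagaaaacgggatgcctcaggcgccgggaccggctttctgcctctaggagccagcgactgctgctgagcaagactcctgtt
Afp, chr5:90490464-90490763 (plus strand): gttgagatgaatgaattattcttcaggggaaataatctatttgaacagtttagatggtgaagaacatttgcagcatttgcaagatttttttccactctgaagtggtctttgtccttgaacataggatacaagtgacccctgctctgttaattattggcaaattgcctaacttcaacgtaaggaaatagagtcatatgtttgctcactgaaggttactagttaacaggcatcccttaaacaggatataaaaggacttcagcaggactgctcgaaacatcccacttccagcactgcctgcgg
Of the 4 promoters printed, only that of Amn held the palindrome CACGTG, the E-box bound by MAX dimers, with its first base at -26 from the start. CACGTG was in 7.15% of 32851 RefSeq mouse promoters of this length. The GATA motifs AGATAA and TGATAA, searched on both strands, were in 11.2% and 9.05% of all promoters and in none of these 4. Among the 6 genes, AGATAA occurred in 1 of the 3 Foxa2 promoters, at -183. The SOX motif ACAAT was in 31% of all promoters and, among the 6 genes, in 1 of the 3 Apoe promoters. A match of letters is a description and not a binding site.

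Levels are given as log2 of the processed signal minus the array's 75th percentile, so that 0 is that percentile, and a level of 1 probe is not set against that of another. The share of spots well above background ran from 58.2% to 67.6% over the arrays, with 0 saturated spots. Replicate arrays correlated at 0.991 to 0.995 across genes. Max, the targeted gene, was at 2.84, 2.74 and 2.85 in the control arrays and at 0.59, 0.83 and 1.13 in the knockdown arrays, and Ddx4, on whose promoter the gate was set, was higher in the knockdown by 2.64. All 10 pluripotency markers checked were above background on every control array, and all 10 germ cell markers on every PGC array. These counts do not tell the groups apart. In control 9 of the germ cell markers were above background on all arrays, and in the PGCs 9 of the pluripotency markers. Summed linear levels of the germ cell markers were 7.56 to 7.74 in control, 40.3 to 46.1 in knockdown and 119 to 136 in the PGC arrays. Of all genes tested, 40.1% passed an adjusted p of 0.05 between knockdown and control, 75.6% between PGCs and control and 76.3% between PGCs and knockdown, in limma's fit with Benjamini-Hochberg adjustment. Of these calls 54.7%, 42.8% and 41.2% were lower, against 28.8%, 86.5% and 87.8% when arrays were scaled on spiked-in RNA, which moved the median of all genes to -0.78 and -0.75 in the PGC comparisons. Control 1 and 2 and knockdown 1 and 2 shared slide 1, and control 3 and knockdown 4 shared slide 2, while the PGC arrays were on slides 3 and 4. Each slide was scanned on a different day. Slide and scan day therefore cannot be told apart from the difference between PGCs and ES cells.

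Of the 10 genes, 6 were lower in the knockdown than in the control cells, none was higher, and 4 did not pass the test. Among all genes tested, 21.9% were lower and 18.2% higher. The 6 were all 3 receptor genes and the factor genes Gata4, Gata6 and Foxa2. The arrays of both groups did not overlap for 5 of these 6, beside 30.7% of all genes that were lower without overlap and 23.4% that were higher. A fall of at least 2-fold was called for 3 genes, Cubn, Foxa2 and Amn, beside 11.1% of all genes called with a change of that size in either direction. Foxa2, dim on 2 of 3 knockdown arrays, was under 2-fold with normexp background correction and quantile normalization (-0.51). The median difference over the 10 genes was -0.86, and over all genes -0.07. With spike-in scaling the count was 2, Cubn and Foxa2, and 1001 of all 20443 genes were called, 28.8% of them lower. The differences of the other 4 were nearly the same: -1.3 for Amn, -0.93 for Gata4, -0.76 for Lrp2 and -0.6 for Gata6. Lower RNA in a sorted population can come from fewer cells of a type or from less RNA per cell, and these cannot be told apart here.

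**Figure D1:**
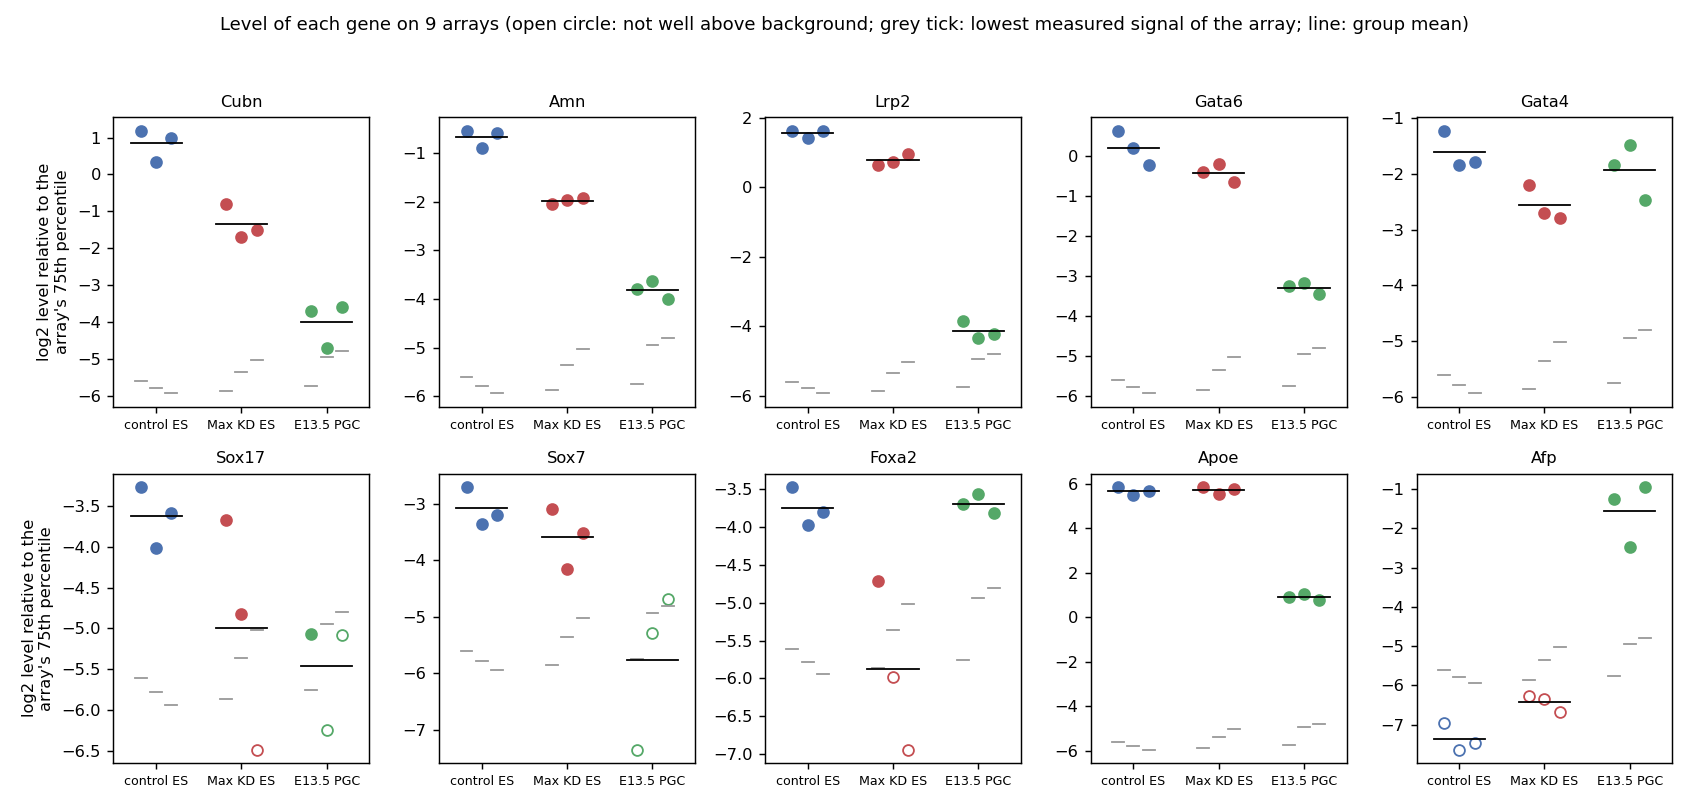
Level of each of the 10 genes on each of the 9 arrays, in log2 units relative to the array's 75th percentile (each panel has its own axis). Filled circles are arrays where the probe was well above background, open circles arrays where it was not, grey ticks the lowest signal well above background on that array and lines the group means of 3 arrays; Cubn and Amn step down from control to knockdown to PGC, Apoe is level between both ES groups, and Afp is filled in the PGC arrays only.

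Compared with control cells, the PGCs had 7 of the 10 genes lower and 1, Afp, higher, while Gata4 and Foxa2 did not pass the test. The background was 32.4% of all genes lower and 43.2% higher. All 7 were lower without overlap of the arrays, beside 33.5% of all genes, and Afp was higher without overlap, beside 45%. The median difference was -2.91 over the 10 genes (-2.59 with dim groups at their bound) and 0.18 over all genes. Set against the knockdown cells, the PGCs had 6 of the 10 lower, beside 31.4% of all genes, and 2 higher, Foxa2 and Afp, beside 44.9%. Arrays did not overlap for any of these 8, beside 32.4% of all genes lower and 46.2% higher without overlap. That median was -2 over the 10 genes (-1.68 with dim groups at their bound) and 0.21 over all genes. Since each pair of comparisons shares a group of arrays, the counts are not independent of each other. The filter on dim genes let Afp into testing through the PGCs alone, Sox17 through control alone, Sox7 through both ES groups and Foxa2 through control and PGCs. It favours calls with these groups higher in any of the 3 comparisons.

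**Figure D2:**
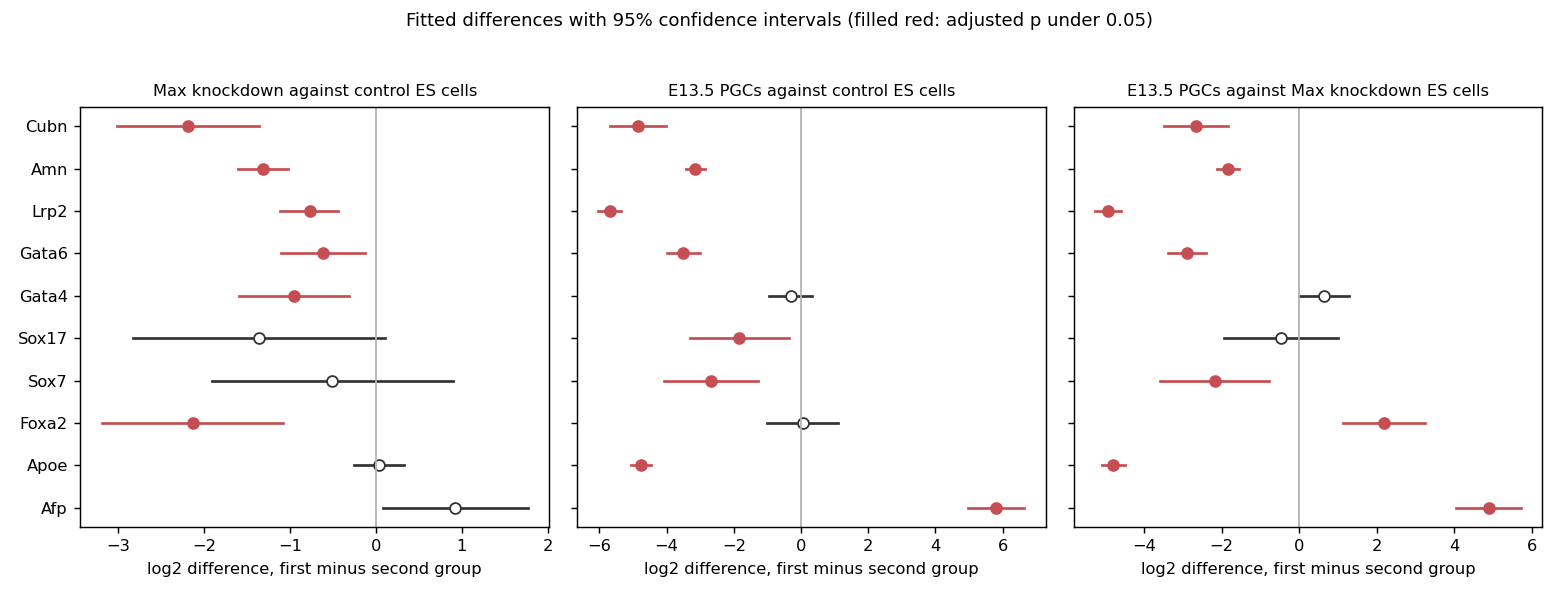
Fitted log2 differences (points) with 95% confidence intervals (bars) for the 10 genes in the 3 comparisons, first group minus second, 3 arrays a group. Filled red points passed an adjusted p of 0.05: 6 in the first panel, all below 0, and 8 in each of the other panels, where Afp lies above 0 and Foxa2 above 0 only against the knockdown cells.

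Cubn, the cubilin receptor, was at 1.19, 0.35 and 0.99 in control 1, 2 and 3, at -0.81, -1.7 and -1.51 in knockdown 1, 2 and 4, and at -3.71, -4.72 and -3.6 in PGC 1, 2 and 3. The groups did not overlap, with control highest and PGC lowest. Cubn fell 4.54-fold in the knockdown (log2 difference -2.18, SE 0.36, adjusted p = 0.0018, limma), and was 28.9-fold lower in the PGCs than in the control cells (adjusted p = 3.5e-06) and 6.36-fold lower than in the knockdown cells (adjusted p = 0.00015). Within slide 1 the knockdown minus control difference was -2.03 and within slide 2 it was -2.5. Over 22 other settings the Cubn difference between PGCs and control ran from -5.81 to -3.39. The other Cubn probe read -2.68, -3.51 and -3.26 in the control arrays and was not well above background on any knockdown or PGC array. By that probe the knockdown was at least 4.35-fold lower (adjusted p = 0.00015) and the PGCs at least 4.04-fold lower (adjusted p = 4.3e-06). The bound sets the control mean against the dim arrays, each at the higher of its own signal and that array's lowest signal well above background.

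Amn, whose product amnionless brings cubilin to the membrane, was the most even of the 10 within the knockdown group. Its control levels were -0.54, -0.89 and -0.58, its knockdown levels -2.04, -1.97 and -1.93, and its PGC levels -3.8, -3.63 and -4. All 3 groups were separate, in the same order as for Cubn. The fall in the knockdown was 2.48-fold (log2 difference -1.31, SE 0.13, adjusted p = 0.00014), with -1.29 within slide 1 and -1.35 within slide 2. PGCs lay 8.79-fold below control (adjusted p = 1.2e-07) and 3.55-fold below knockdown (adjusted p = 2.5e-06).

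Lrp2, the megalin receptor, showed the smallest change of the 3 receptor genes in the knockdown and the largest measured fall of the 10 between control and PGCs. It was at 1.62, 1.42 and 1.64 in the control arrays, at 0.65, 0.74 and 0.97 in the knockdown arrays and at -3.85, -4.34 and -4.22 in the PGC arrays, with no overlap. It fell 1.71-fold in the knockdown (log2 difference -0.77, SE 0.15, adjusted p = 0.0036), with -0.82 on slide 1 and -0.67 on slide 2. In the PGCs it was 51.8-fold lower than in control cells (log2 difference -5.69, SE 0.15, adjusted p = 1.5e-08) and 30.3-fold lower than in knockdown cells (adjusted p = 2.6e-08). Over 22 other settings the Lrp2 difference between PGCs and control ran from -6.65 to -4.07. The differences in size between the 3 receptor genes were not tested.

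Gata6, the earliest acting of the factor genes, was clearly above background in all groups and passed the test in the knockdown only narrowly. The control arrays read 0.64, 0.2 and -0.23 and the knockdown arrays -0.39, -0.2 and -0.64, so that control 3 lay among the knockdown arrays. The difference was -0.61 (SE 0.21, adjusted p = 0.049). Without control 1 it was -0.4 with an adjusted p of 0.13, and it missed the threshold under 15 of 25 other settings. PGC levels of -3.24, -3.18 and -3.46 were far below both ES groups, 11.3-fold below control (adjusted p = 1e-06) and 7.38-fold below knockdown (adjusted p = 3.5e-06).

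Gata4, a second GATA factor of primitive endoderm that is also a factor of gonadal somatic cells, was lower in the knockdown and did not pass the test between PGCs and either ES group. It was at -1.22, -1.83 and -1.78 in control, at -2.19, -2.7 and -2.79 in knockdown and at -1.83, -1.48 and -2.46 in the PGC arrays. The ES groups were separate, with PGC 2 inside the control range and PGC 3 inside the knockdown range. The fall in the knockdown was 1.93-fold (log2 difference -0.95, SE 0.28, adjusted p = 0.027), and it missed the threshold under 7 of 25 other settings, among them leaving out control 1 (adjusted p = 0.087), knockdown 2 or knockdown 4 (0.079 each). The PGC minus control difference was -0.31, with a 95% interval from -0.95 to 0.33 (adjusted p = 0.34), and PGC minus knockdown was 0.64, from 0 to 1.28 (adjusted p = 0.066). With spike-in scaling Gata4 was lower in the PGCs than in control (-1.27, adjusted p = 0.035), and PGC minus knockdown was -0.33 (adjusted p = 0.65).

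Sox17, which acts after Gata6, had a pair of probes with different outcomes. By the probe used for the counts, control levels were -3.27, -4.02 and -3.59, knockdown levels -3.68, -4.82 and -6.48 and PGC levels -5.07, -6.24 and -5.08; it was well above background on 2 of 3 knockdown arrays and on PGC 1 only. The knockdown difference of -1.36 did not pass the test (SE 0.64, 95% interval from -2.83 to 0.11, adjusted p = 0.13), and knockdown 4 lay furthest from its group: the difference was -0.6 within slide 1 and -2.89 within slide 2, or -1.43 there with knockdown 4 set to its lowest measurable signal. Without knockdown 1 it was -2.02 (adjusted p = 0.026). The other Sox17 probe was well above background on all 6 ES arrays, at -2.9, -3.18 and -3.16 in control and -3.65, -3.91 and -4.27 in knockdown, without overlap, and its difference of -0.86 passed (SE 0.26, adjusted p = 0.027). In the PGCs the probe used was lower than in control (log2 difference -1.84, adjusted p = 0.028), a call that was lost without control 1 (0.081), control 3 (0.062) or PGC 2 (0.099). That probe entered testing through the control group alone, which favours such a call. The other probe was above background on no PGC array and put the PGCs at least 4.24-fold below control (adjusted p = 8.5e-07) and at least 2.33-fold below knockdown (adjusted p = 3.4e-06).

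Sox7, the close relative of Sox17, did not pass the test in the knockdown. Its control levels of -2.7, -3.35 and -3.2 overlapped knockdown levels of -3.09, -4.16 and -3.52 (log2 difference -0.51, 95% interval from -1.91 to 0.9, adjusted p = 0.56). The interval includes both no change and a fall of more than 2-fold. Sox7 was not well above background on any PGC array, which placed the PGCs at least 4.12-fold below control (adjusted p = 0.0036) and at least 2.9-fold below knockdown (adjusted p = 0.01).

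Foxa2, a factor of visceral and definitive endoderm, was the 1 factor gene called lower in the knockdown than in both other groups. It was at -3.47, -3.97 and -3.8 in control and at -3.7, -3.57 and -3.82 in the PGC arrays, which lie over each other, and at -4.72, -5.98 and -6.94 in knockdown, where only knockdown 1 was well above background. It fell in the knockdown (fitted log2 difference -2.13, SE 0.46, adjusted p = 0.0066). With the dim arrays set to their lowest measurable signal the fall was 2.44-fold (-1.29), with -1.32 within slide 1 and -1.22 within slide 2. The call was kept under all 24 other settings in which it was tested, but its size ran from -3.13 to -0.51. The smallest came with normexp background correction and quantile normalization. Foxa2 was higher in the PGCs than in the knockdown cells (adjusted p = 0.0022), 2.53-fold (1.34 on the log2 scale) with the dim arrays at that signal. The fitted log2 difference, without that step, was 2.19, against 1.22 with spike-in scaling and 0.51 with normexp. PGCs differed from control by 0.05, with an interval from -1 to 1.1 (adjusted p = 0.92). The other Foxa2 probe was dim throughout, with no array well above background.

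**Figure D3:**
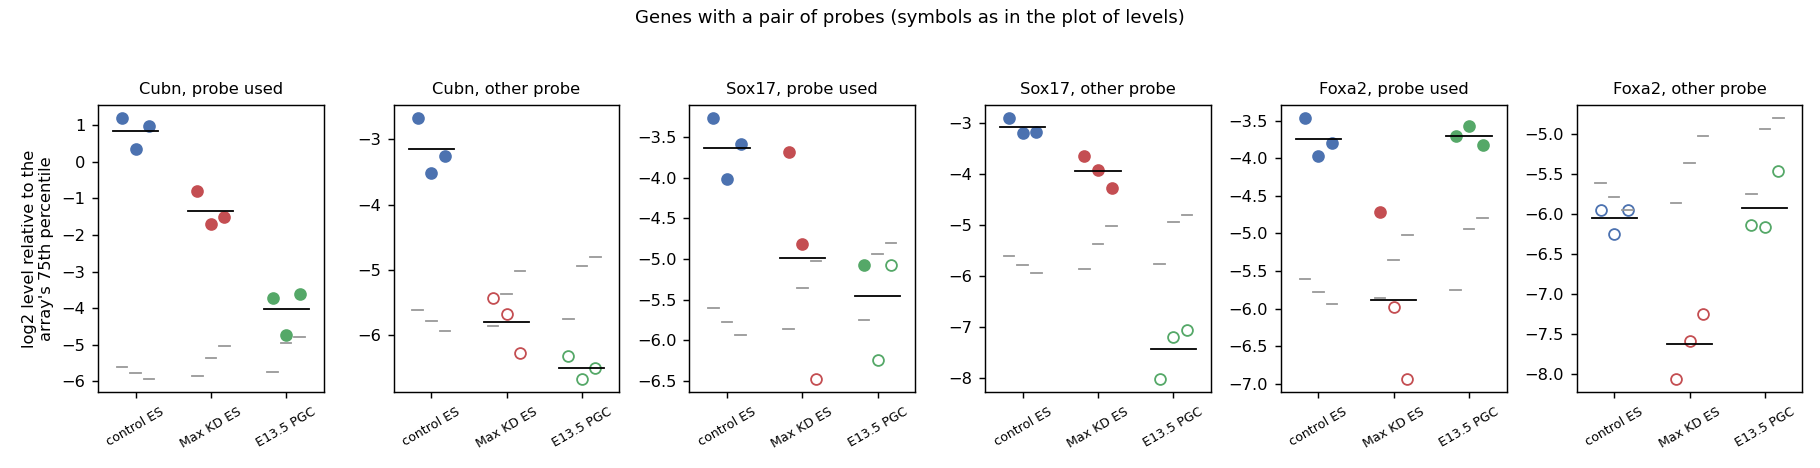
Both probes of Cubn, Sox17 and Foxa2 on the 9 arrays, in log2 units relative to the array's 75th percentile, each panel with its own axis. Filled circles were well above background and open circles were not, grey ticks mark the lowest signal well above background on each array and lines are group means; both Cubn probes are lower in the knockdown, the other Sox17 probe separates control from knockdown, and the other Foxa2 probe has open circles only.

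Apoe, the apolipoprotein that carries lipid to LDL receptor family members, did not pass the test in the knockdown and was far lower in the PGCs. Its levels were 5.87, 5.5 and 5.67 in control and 5.85, 5.54 and 5.75 in knockdown, which overlapped fully. The difference was 0.04, with a 95% interval from -0.25 to 0.33 (adjusted p = 0.85). PGC levels were 0.92, 1.04 and 0.8, so Apoe was 27-fold lower than in control cells (log2 difference -4.76, SE 0.13, adjusted p = 1.7e-08) and 27.7-fold lower than in knockdown cells (adjusted p = 1.8e-08).

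Afp, the fetal serum protein of visceral endoderm and liver, was the 1 gene of the 10 that was higher in the PGCs than in both ES groups. Its probe was not well above background on any of the 6 ES arrays and read -1.24, -2.47 and -0.94 in the PGC arrays, above background on all 3. This placed the PGCs at least 18.7-fold above control (adjusted p = 1.3e-06) and at least 14.5-fold above knockdown (adjusted p = 4.1e-06). Afp entered testing only because it passed the filter in the PGCs, so the filter favoured these calls. The ES signals of -6.95, -7.64 and -7.47 in control and -6.28, -6.35 and -6.67 in knockdown did not overlap but all lay below measurable signal, so no fold is given (adjusted p = 0.078).

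Further genes of the pathways were counted in 7 lists, also chosen with earlier results of these data known. Of 41 tested genes of primitive and visceral endoderm other than the 10, 15 fell and 3 rose in the knockdown, beside 21.9% lower and 18.2% higher over all genes, with a list median of -0.35. The falls with the lowest adjusted p were Lefty1, a secreted inhibitor of Nodal (log2 difference -1.96, adjusted p = 8.2e-05), Emb, a membrane glycoprotein (-1.38, adjusted p = 9.5e-05), and Habp2, a secreted protease (at least 3.08-fold lower, adjusted p = 0.00013). The rises were Cited1, a transcriptional co-regulator (1.81, adjusted p = 8.1e-05), Tspan8, a tetraspanin (at least 2.74-fold, adjusted p = 0.00049), and the nuclear receptor gene Nr5a2 (0.72, adjusted p = 0.0028). Of 15 basement membrane genes, which parietal endoderm makes in quantity, 5 fell and none rose; they included the type IV collagen chains Col4a1 (-1.47, adjusted p = 0.00046) and Col4a2 (-1.45, adjusted p = 0.00054) and the collagen chaperone gene Serpinh1 (-1.41, adjusted p = 0.00017), which is in both lists, as Sparc is. With spike-in scaling the endoderm list had 6 falls and 2 rises and the basement membrane list none of either, with medians of -0.33 and -0.26 beside -0.35 and -0.27. Of all 20443 genes, 1001 were called under that scaling, 28.8% of them lower and 71.2% higher.

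Among 27 partners of cubilin and megalin and members of the LDL receptor family, 12 fell and 2 rose in the knockdown, beside 21.9% and 18.2% of all genes, with a median of -0.23. The falls included the megalin-binding adaptor gene Gipc1 (log2 difference -0.48, adjusted p = 0.0022). Mylip, a ubiquitin ligase for LDL receptors, was higher by 0.69 (adjusted p = 0.0042), and Fcgrt, the neonatal Fc receptor gene, by 0.73 (adjusted p = 0.008). In the general machinery of clathrin coats and early endosomes, 14 of 66 genes rose and 9 fell, near or below those shares, with a median of -0.03 that was 0.04 with quantile normalization. Its called genes included Rbsn (0.82), Sh3gl3 (0.94) and Rab5a (0.58) among the rises and Bin1 (-1.14), Cltb (-0.84) and Rab11fip5 (-0.71) among the falls. With spike-in scaling no gene of this machinery was called in either direction, and 1 of the 27 partners and family members fell, with medians of -0.01 and -0.22. That scaling called 1001 of all 20443 genes.

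Of 23 lipoprotein and plasma protein genes, 6 rose and 6 fell, beside 18.2% and 21.9% of all genes, with a median of 0.01 that was -0.02 with quantile normalization. The rises included the cholesterol exporter genes Abca1 (2.91, adjusted p = 2e-05) and Abcg1 (1.48, adjusted p = 6.5e-05) and Ahsg, the gene of a fetal plasma protein (3.31, adjusted p = 2.6e-05). Falls included Pltp (-0.91), Trf, the transferrin gene (-1.04), and Soat1 (-0.54). Of 20 GATA, SOX and FOXA relatives of the 5 factor genes, 3 rose and 7 fell: Sox2, a pluripotency factor, was higher by 0.57 (adjusted p = 0.0062), Gata2 by 0.66 (adjusted p = 0.012) and Sox30 at least 2.87-fold (adjusted p = 0.0012), and Sox4 (-1.09, adjusted p = 0.00021) was lower, Sox9 at least 2.25-fold and Sox18 at least 2.52-fold. Of 28 signals and factors that act before primitive endoderm forms, 6 rose, such as Fgfr3 (1.12), Grb2 (0.59) and Etv4 (0.48), and 7 fell, such as Mapk3 (-0.76), Nodal (-0.51) and Dusp4 (-1.01), shares close to those of all genes. With spike-in scaling the rises and falls were 2 and 0 of the lipoprotein genes and 1 and 2 of the GATA, SOX and FOXA relatives. They were 0 and 0 of the upstream signals. The medians were 0.03, -0.19 and -0.09, and 1001 of all 20443 genes were called under that scaling.

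In the PGCs more genes of each list were called against control than in the knockdown, as were more of all genes (75.6% beside 40.1%). Against control, 26 of the 41 primitive and visceral endoderm genes were lower and 6 higher, beside 32.4% and 43.2% of all genes, with a median of -1.08. Spink1 was at least 11.2-fold lower, the claudin gene Cldn6 at least 8.59-fold lower and Cpn1 lower (-2.62), whereas Tspan8 was at least 14.5-fold higher and the hedgehog ligand gene Ihh higher by 2.17. Of the 15 basement membrane genes 12 were lower, with a median of -2.41, among them Lama5 (-4.12), Nid1 (-2.76) and Lamc1 (-2.55), and Lamb1 was higher by 0.69, a sign that turned under spike-in scaling. In the receptor list 18 of 27 were lower and 5 higher: the receptor gene Vldlr was at least 76.4-fold lower, the receptor gene Lrp1 lower (-3.07) and Dab2, the adaptor that links megalin to clathrin, at least 7.65-fold lower, while Tcn2, which carries vitamin B12, was higher by 1 and its receptor gene Cd320 by 0.96. Of the clathrin and endosome genes 28 were higher and 20 lower of 66, near the shares of all genes, with a median of 0.06 beside 0.18 for all genes. Synj2 was at 3.11 and Rab4a at -2.64. The counts of rises and falls were 7 and 8 of 23 for lipoprotein genes (median -0.2), 3 and 10 of 20 for GATA, SOX and FOXA relatives (median -0.57) and 8 and 17 of 28 for the upstream signals (median -0.66). Among those signals Fgf4, the ligand that drives the primitive endoderm choice, was lower, with 1 of 3 PGC arrays above background, and its receptor gene Fgfr2 higher (2.2). With spike-in scaling the rises and falls against control were 1 and 22 of the clathrin and endosome genes, 1 and 11 of the lipoprotein genes, 0 and 18 of the receptor list, 1 and 11 of the GATA, SOX and FOXA relatives and 2 and 17 of the upstream signals. Under that scaling they were 3 and 27 of the primitive and visceral endoderm genes and 0 and 13 of the basement membrane genes. Of all 20443 genes, 1160 rose and 7462 fell against control under that scaling, with a median of -0.78. The list counts under spike-in scaling are to be read beside these and not beside the shares given above.

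**Figure D4:**
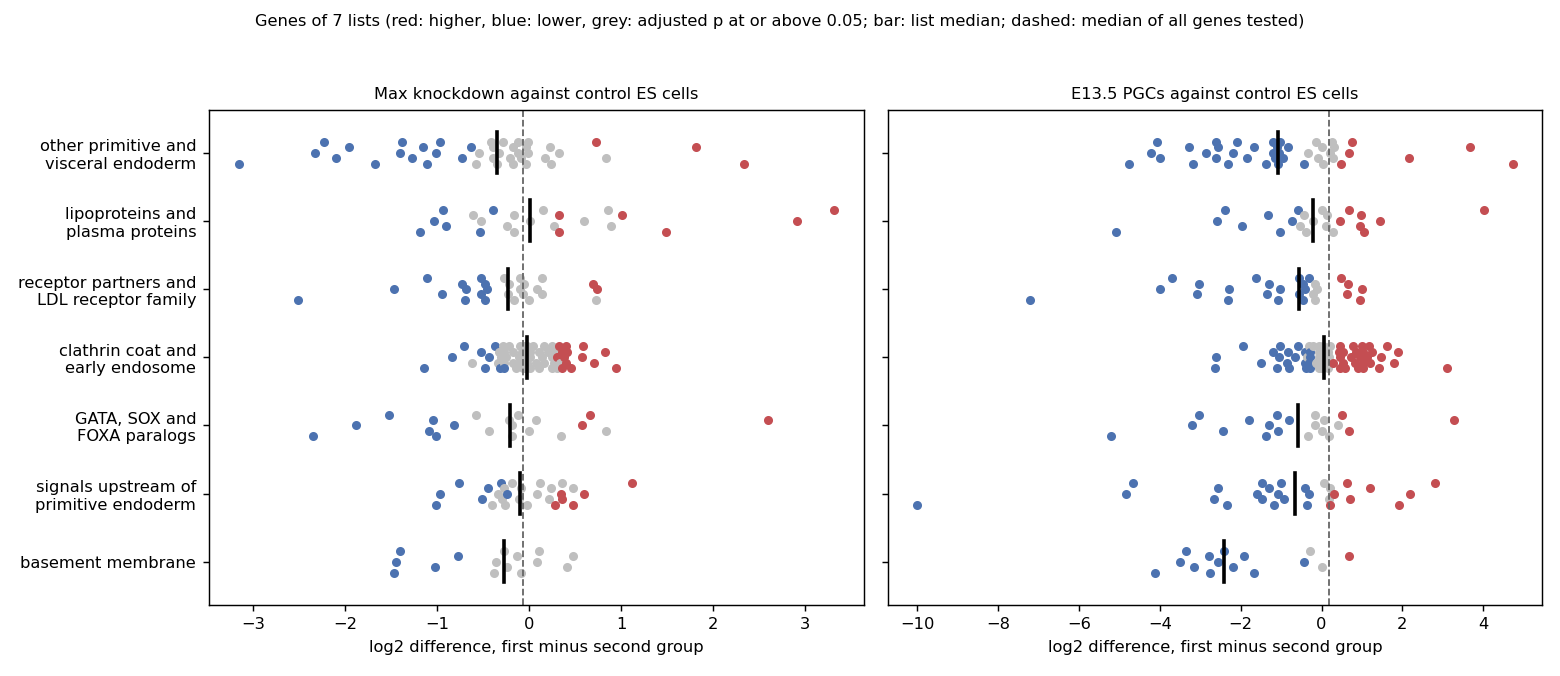
Log2 differences of the genes of 7 lists, knockdown minus control on the left and PGC minus control on the right, 3 arrays a group. Red points were called higher, blue lower and grey neither at an adjusted p of 0.05, black bars are list medians and the dashed line is the median of all genes; on the left the endoderm list has 15 blue and 3 red points and the clathrin list 9 blue and 14 red.

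Markers of some other cell types were also lower in the knockdown, where 21.9% of all genes were lower and 18.2% higher. The summed linear level of 15 fibroblast markers was 20.1, 14.1 and 10.8 in the control arrays, 2.36 to 3.16 in the knockdown and 1.41 to 1.7 in the PGC arrays; 8 of 10 tested were lower in the knockdown and none higher, such as Acta2 (-3.84), Tagln (-3.1) and Col1a2 (-2.36). Tagln, at a mean of 3.17 in control, made up the largest part of the control sum. Col5a2, Postn, Lum, Prrx1 and Fap were not well above background in either ES group. Definitive endoderm, which shares Foxa2 and Sox17 with primitive endoderm, was read from 10 markers, whose sum was 34.1, 23.1 and 24.9 in control, 8.78 to 10.9 in knockdown and 2.69 to 3.44 in the PGC arrays. Of its 8 tested markers 3, Trh (-1.64), Cldn4 (-1.5) and Gsc (at least 1.68-fold), were lower in the knockdown and none higher, and the list median was -0.12, beside -0.07 for all genes. Trh makes up most of the sum; Eomes was at -0.44 in control and -0.48 in knockdown, Hhex at -1.09 and -1.11, and Foxa1 at -1.84 and -1.96, while Mixl1 and Nepn were not well above background in either ES group. Of 6 tested trophectoderm markers, 3 fell in the knockdown, Krt8 (-1.32), Krt18 (-0.92) and Hand1 (-2.1), and Krt7 rose (0.98). Of 17 tested gonadal somatic markers 3 rose and 2 fell in the knockdown. Of 11 tested markers of macrophages, blood and endothelium 2 rose and none fell. The part of these markers in the falls of the 6 genes was not tested. Control 1 was the highest of the control arrays for 9 of the 10 genes, beside 31.2% of all genes, and control 2 the lowest for 9 of the 10, beside 32.9%. Among the control arrays, control 1 also had the highest sums of fibroblast, definitive endoderm, trophectoderm, gonadal somatic, blood and pluripotency markers. The pluripotency sums were 218, 200 and 186 in control 1, 2 and 3, and the germ cell sums 7.71, 7.74 and 7.56. When control 1 was left out, the 3 receptor genes and Foxa2, 4 of the 10, were lower in the knockdown.

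Markers of gonadal somatic cells, which a sort of genital ridge cells could hold, had summed levels of 16.5, 21.8 and 10.9 in PGC 1, 2 and 3, against 6.63 to 7.48 in control and 8.98 to 9.73 in knockdown. Of 17 tested, 11 were higher in the PGCs than in control and 2, Inhbb (-1.53) and Wt1 (-1), lower, beside 43.2% and 32.4% of all genes; Cst9 was at least 233-fold higher and Fgf9 higher by 2.21. ES cells also expressed some of this list, with 12 to 14 of 23 above background on the control arrays. Those not well above background on any PGC array included Emx2 and Cbln4. Gata4 had its highest PGC level in PGC 2, as 37.6% of all genes did, and its lowest in PGC 3, as 25.1% did, and the gonadal sum had the same order. Afp was lowest in PGC 2, as were 31.6% of all genes, and highest in PGC 3, as were 33.8%. The orders of these 3 arrays were not tested. The sum of 17 markers of macrophages, blood and endothelium was 3.54 to 4.97 in the PGC arrays, 3.04 to 4.37 in knockdown and 2.65 to 3.6 in control, with Hbb-bt at least 29.1-fold and Hba-a1 3.89 log2 units higher and C1qa, C1qc, Lyz2, Tek and Tie1 among those not well above background in the PGCs. The part of these markers in the levels of Gata4, Foxa2 and Afp in the PGCs was not tested.

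**Figure D5:**
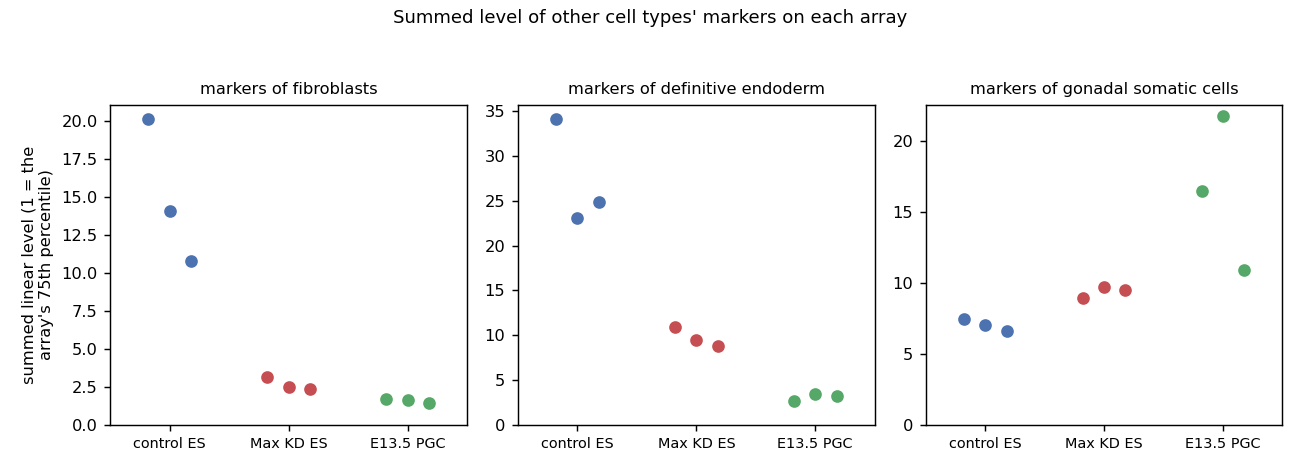
Summed linear level of the markers of fibroblasts, definitive endoderm and gonadal somatic cells on each of the 9 arrays, where 1 is the array's 75th percentile. The first 2 sums are highest in the control arrays (10.8 to 20.1 and 23.1 to 34.1) and the third in the PGC arrays (10.9 to 21.8).

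The genes with the most similar profile over the 9 arrays were sought for the 9 genes whose group means spanned at least 1 log2 unit, as the smallest root mean square difference between centred profiles among 14443 genes. The closest matches were those of Amn, with Dtx1 and Apobec1 (0.12 each) and Itpripl2 (0.13), and of Apoe, with Slc7a3 and Slc2a3 (0.14 each) and Gm5796 (0.15). Gata6 was nearest to Egln3 (0.19), Vangl1 and F2r (0.2 each), and Lrp2 to Kbtbd11 and Hspb8 (0.21 each) and Slc16a3 (0.25). For Cubn the nearest were Aqp8 (0.33), itself in the primitive and visceral endoderm list and lower in the knockdown (log2 difference -2.1), Gbp2 (0.34) and Plaur (0.46). Afp was nearest to Gm1141 and Kcnc2 (0.37 each) and Lypd9 (0.38). Foxa2 was matched less closely, with Igf2 (0.42), Zfp521 (0.44) and Sox9 (0.46), as were Sox7, with Eda2r (0.44), Tcf23 (0.45) and Tha1 (0.48), and Sox17, with Gpr85 (0.51), Abcc3 (0.52) and Gsc (0.56).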

How the data were processed

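The authors deposited Agilent Feature Extraction 10.7.3.1 scanner files, 1 per array, made from 100 ng of total RNA labelled with Cy3, per the file headers and the labels' protocols. The values used were the processed intensity of each spot, which the authors' software had already background-corrected, per the file headers. A deposited table of log2 values matched these on the log2 scale after centring each probe (r 0.99994 to 0.99999), with column medians from -0.12 to 0.39; any further step in it is unknown, and it served as an alternative. Control spots and 65 probes with outlier flags were left out, and spots of a probe averaged. Of 39364 probes, 26012 took a symbol through a RefSeq accession. Log2 intensity minus the array's 75th percentile was used, the probe with the highest mean stood for a gene, and a gene was tested if its probe was well above background on every array of 1 or more groups, giving 20443. Of the 10 genes, Sox17 passed through the control group alone, Afp through the PGCs alone, Sox7 through both ES groups and Foxa2 through control and PGCs. limma 3.58.1 (R 4.3.3) fitted 3 group means over 9 arrays, with two-sided p-values adjusted by Benjamini-Hochberg over all genes. The number of arrays limits the precision: an exact permutation test of 3 against 3 cannot go below 0.1. Where a group was dim on all its arrays, the fold is a lower bound. Each dim array then stood at the higher of the probe's own signal and the array's lowest signal well above background. The members and lists were chosen with earlier results of these data known. Named genes are the 10, Max and Ddx4, up to 3 rises and 3 falls with the lowest adjusted p of each list (a selection of these for the PGCs), markers by the same rule (some genes that the rule names are not reported here), and 3 nearest profiles each; Dab2, Aqp8 and markers absent on an array group were named beside them. Alternatives covered scaling, background, filter, probe choice, slide, replicate number and single arrays. The fit was tested on simulated data.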

Additional observations from a re-analysis of the deposited data

How the results depend on the processing

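No call for the 10 genes reversed its direction under the alternatives run. The count of 6 genes lower in the knockdown was 2 with spike-in scaling and 2 within slide 2 alone, where 1 control and 1 knockdown array are assumed to vary like the other groups. It was 7 with slide as a block, and 6 with spike-in scaling and slide as a block, a setting chosen after seeing the data, like normexp without the spots below local background, which gave 7. Leaving out single arrays gave 4 to 6. The count of 8 for PGCs against control was 5 when a gene had to be well above background on all 9 arrays, which removes Sox7, Sox17, Foxa2 and Afp from testing, 7 with slide as a random block (correlation 0.29), where Sox17 was lost (adjusted p = 0.067), 7 to 8 without single arrays, and 9 with spike-in scaling, which adds Gata4 as lower (-1.27, adjusted p = 0.035). For PGCs against knockdown it was 8 to 9 without single arrays. No slide held both PGC and ES arrays, so no setting, the random block included, separates slide from the PGC differences. Over its alternatives the knockdown call ranged in adjusted p from 0.011 to 0.96 for Gata6, 0.009 to 0.53 for Gata4, 0.00019 to 0.76 for Lrp2, 1.6e-05 to 0.16 for Amn, 7.7e-05 to 0.067 for Cubn and 0.00016 to 0.026 for Foxa2, the highest for Gata6, Gata4, Lrp2 and Amn coming with spike-in scaling. Sox17 between PGCs and knockdown passed with the mean of its probes (-1.98, adjusted p = 0.0015), and Gata4 there passed in 7 of 22 alternatives but was -0.33 with spike-in scaling. The normexp settings started from median spot signals, added an offset of 50 to every signal and used quantile normalization. The parts of these steps in a difference cannot be told apart. Differences of dim genes were smaller under these settings. Between PGCs and control they were -1.99 for Amn, -0.53 for Sox17, -0.79 for Sox7 and 2.01 for Afp. Between PGCs and knockdown they were -1.52 for Cubn and -0.96 for Amn. Spike-in scaling, resting on 7 of 10 spike-in probes, also cut the genes called over the whole array from 8205, 15451 and 15593 to 1001, 8622 and 8255, and slide 2 alone gave 2348 in the knockdown.

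The labels do not say what the replicate numbers mark, and the main fit did not treat them as pairs. Control and knockdown arrays share only the numbers 1 and 2. Their deviations from the group mean correlated at 0.37 and 0.39, above the -0.03 and -0.07 of the unmatched pairs on slide 1. Control 3 and knockdown 4, on 1 slide, had 0.51, and PGC arrays had -0.03 to 0.02 with ES arrays of the same number. A pairing of control and knockdown samples is therefore possible, and no fit paired all of these at once. With replicate number as a block the counts were 5, 8 and 9, without Gata6 in the knockdown (adjusted p = 0.051) and with Sox17 between PGCs and knockdown (adjusted p = 0.0013). Signal over background limits Sox7, Sox17, Foxa2 and Afp, and 1 probe a gene limits Gata4, Gata6, Sox7, Afp, Apoe, Lrp2 and Amn. Cubn and Lrp2 were well above background on all 3 PGC arrays but near the lowest such signal. On PGC 2 they read -4.72 and -4.34, beside -4.94 for that signal, so the size of their PGC folds depends on the processing.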
